A study of Rattus norvegicus with 6 samples.

Results

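Small noncoding RNA genes held 93 of the 24862 regions that were listed as differing in DNA methylation between stressed and unstressed rats and that were annotated to genes, repeats or CpG island features. The members were chosen by gene symbol alone: microRNA genes, small nucleolar RNA (snoRNA) genes, Cajal body RNA genes, the spliceosomal and histone small nuclear RNA (snRNA) genes U1, U2, U4, U5, U6 and U7, the 5S and 5.8S ribosomal RNA (rRNA) genes, and the genes of 7SK, Y RNA and signal recognition particle (SRP) RNA. Each region was counted once by its position and sequence context, and the 93 regions were assigned to 96 gene identifiers with 49 symbols. The smaller number of symbols arises because the copies of U6, 5.8S rRNA and the other repeated genes share a symbol.

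The methylomes came from brain microvascular endothelial cells (BMECs) sorted as CD45-/CD31+ cells from the hippocampus of male Sprague-Dawley rats. In the CUMS group, rats had lived through 8 weeks of chronic unpredictable mild stress, and the Ctrl group was left unstressed. Each group held 3 samples, and neither the labels nor the study's methods say whether a sample was 1 rat or a pool. The tables hold no expression values, so the endothelial identity of the sorted cells could not be checked against marker genes here. For each region the tables give 1 methylation level per group, already combined over samples by the authors, and no read numbers. The study's methods state a genome-wide coverage for the samples, but the tables give no depth for a single region. Replicate error and the read depth of the region are therefore unknown for every level below, and the variation among rats could not be compared with any difference. Every region was listed by the authors because its level differed, so the difference itself is not a result, and the direction, the size and the setting of the regions are described.

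Small noncoding RNAs work without being translated. MicroRNAs are cut from hairpin precursors and repress messenger RNAs that pair with their seed, bases 2 to 8 of the mature RNA. 5S and 5.8S rRNA are part of the large ribosomal subunit, snRNAs form the core of the spliceosome, and snoRNAs guide chemical modification of rRNA. DNA methylation in mammals lies mainly on cytosines of CG dinucleotides and is usually low in CpG islands, the CG-rich stretches found at many promoters. Methylation in the CHG and CHH contexts, where H stands for A, C or T, is rare in most adult cells. U6, 7SK, Y RNA, SRP RNA and 5S rRNA genes are transcribed by RNA polymerase III, and 5.8S rRNA is cut from the long rRNA precursor made by RNA polymerase I.

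The mature sequences of microRNAs with a CG region at their gene, and of miR-148a with the largest CHG difference at a microRNA gene, are shown first, because these are the RNAs that the microRNA results concern. RefSeq (GRCr8 assembly) held 33 of the 38 microRNA genes. Mir124-1, Mir2861, Mir3072, Mir5126 and Mir7654 are named only. The seed is in capitals. The first set lies at 1 CG region on chromosome 15, where miR-17-5p and miR-20a-5p share the seed AAAGUGC.

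rno-miR-17-5p: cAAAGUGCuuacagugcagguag
rno-miR-18a-5p: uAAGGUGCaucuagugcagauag
rno-miR-19a-3p: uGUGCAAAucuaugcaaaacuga
rno-miR-20a-5p: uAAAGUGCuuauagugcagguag

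The second set lies at 1 CG region on chromosome 10, where miR-132-3p and miR-212-3p share the seed AACAGUC.

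rno-miR-132-3p: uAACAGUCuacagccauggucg
rno-miR-212-3p: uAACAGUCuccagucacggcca

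The remaining microRNAs each lie at a region of their own and share no seed with each other.

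rno-let-7i-5p: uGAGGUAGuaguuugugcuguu
rno-miR-92b-3p: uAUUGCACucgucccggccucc
rno-miR-148a-3p: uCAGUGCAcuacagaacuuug
rno-miR-193b-3p: aACUGGCCcacaaaguccc
rno-miR-1247-5p: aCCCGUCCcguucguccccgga
rno-miR-3573-5p: uGAGGGGCagugauagaaagga
rno-miR-5132-5p: cGUGGGGCgguggacccaggcu

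Among these genes, Mir1247 was the only one with a CG region that reached the RNA gene itself. Its hairpin precursor is shown, written as RNA, because the DNA that encodes it can be methylated at many positions. Each CG dinucleotide is in capitals (GRCr8, chr6:135105885-135105966, minus strand).

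Mir1247 hairpin: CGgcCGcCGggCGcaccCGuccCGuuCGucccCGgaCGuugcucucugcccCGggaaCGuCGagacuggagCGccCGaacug

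The 82 bases of this hairpin held 14 CG dinucleotides. The median over the 419 hairpins in the RefSeq table was 2, and 3 of them, Mir1247 included, held 14 or more.

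To determine how the listed regions at small noncoding RNA genes were directed, regions with a higher and a lower level in CUMS were counted. Of the 93 regions, 76 were higher in CUMS and 17 were lower, that is 81.7% higher, and over all annotated regions 75.3% were higher and 24.7% lower. Over regions of any context in the promoter of any gene, 88.8% were higher. In the CG context 40 of 41 regions were higher, with 80.0% over all CG regions and 96.9% over CG regions in the promoter of any gene. In the CHG context 20 of 33 were higher (all CHG regions, 68.6%, promoters, 67.4%), and in the CHH context 16 of 19 (all CHH regions, 78.5%, promoters, 80.9%). The CG share at small RNA genes thus lay close to that of promoters in general, and the CHG and CHH shares lay within 10 percentage points of those over all regions of their context.

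**Figure D1:**
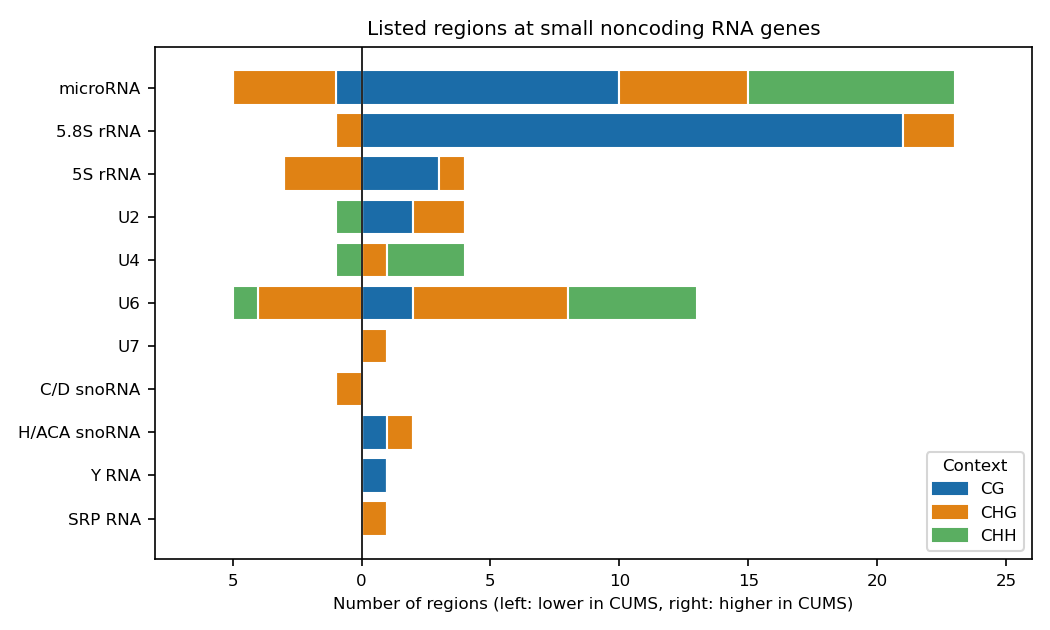
Number of listed regions (x axis) for each class of small noncoding RNA (y axis), with regions lower in CUMS to the left of 0, regions higher in CUMS to the right, and the sequence context as the color. Every CG block lies on the right except 1 microRNA region, and CHG regions lie on both sides in the microRNA, 5.8S, 5S and U6 classes.

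The position of the regions relative to the RNA gene was examined next. Of the 93 regions, 20 touched the RNA gene itself and 73 were assigned only to its promoter. The width that the authors used for promoters is not given in the sources used here. The primary transcript of a microRNA often starts far upstream of the hairpin, so a promoter of a microRNA gene in the annotation need not be where its transcription begins. For 40 regions the annotation also named another gene, in 27 cases an intron of it, and for 53 regions it named none. Repeats were named for 30.1% of the member regions and for 47.1% of all annotated regions. These shares mix contexts unlike in number, since CG regions made up 44.1% of the members and 23.5% of all annotated regions. By context, repeats were named for 4 of 41 CG, 14 of 33 CHG and 10 of 19 CHH members. Over all annotated regions the counts were 1640 of 5849, 4871 of 9017 and 5191 of 9996. A CpG island was named for 87.8% of the CG members, beside 52.7% of all CG regions and 90.3% of CG regions in promoters.

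Levels differed widely between the contexts. The 40 higher CG regions had a median of 28.1% in CUMS and 9.89% in Ctrl, and over all higher CG regions these medians were 25.8% and 7.96%. The 20 higher CHG regions had a median of 4.40% in CUMS and 0.0700% in Ctrl. For the 13 lower CHG regions the order was turned, with 0.0445% in CUMS and 4.83% in Ctrl. The 16 higher CHH regions had a median of 7.09% in CUMS and 0.227% in Ctrl. Outside the CG context the group with the lower level was therefore near 0, and it was under 0.5% in 32 of 33 CHG regions and in 17 of 19 CHH regions. Over all annotated regions the median of that group was 0.0441% for higher CHG, 0.0343% for lower CHG and 0.207% for higher CHH regions. A level near 0 in the lower group was thus not particular to small RNA genes. In an enzymatic library a cytosine that escapes deamination is read as methylated, and its part in these low levels was not tested. A CHH region from the full list overlapped 24 of the 33 CHG members (72.7%, beside 68.1% of all annotated CHG regions), and all 24 had the same direction in both contexts, as did 99.8% of all annotated CHG regions with such an overlap.

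The study's methods state a minimum difference of 10 percentage points, which 34 members (36.6%) reached, beside 31.1% of all annotated regions and 46.5% of those in promoters. By context these were 28 of 41 CG members (all CG regions, 76.1%, promoters, 63.5%), 2 of 33 CHG members (all CHG regions, 3.11%, promoters, 3.85%) and 4 of 19 CHH members (all CHH regions, 30.0%). Both CHG members of this size were lower in CUMS, whereas 63.9% of all CHG regions of this size were higher. Of the 4 CHH members 3 were higher, beside 89.6% of all CHH regions of this size.

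**Figure D2:**
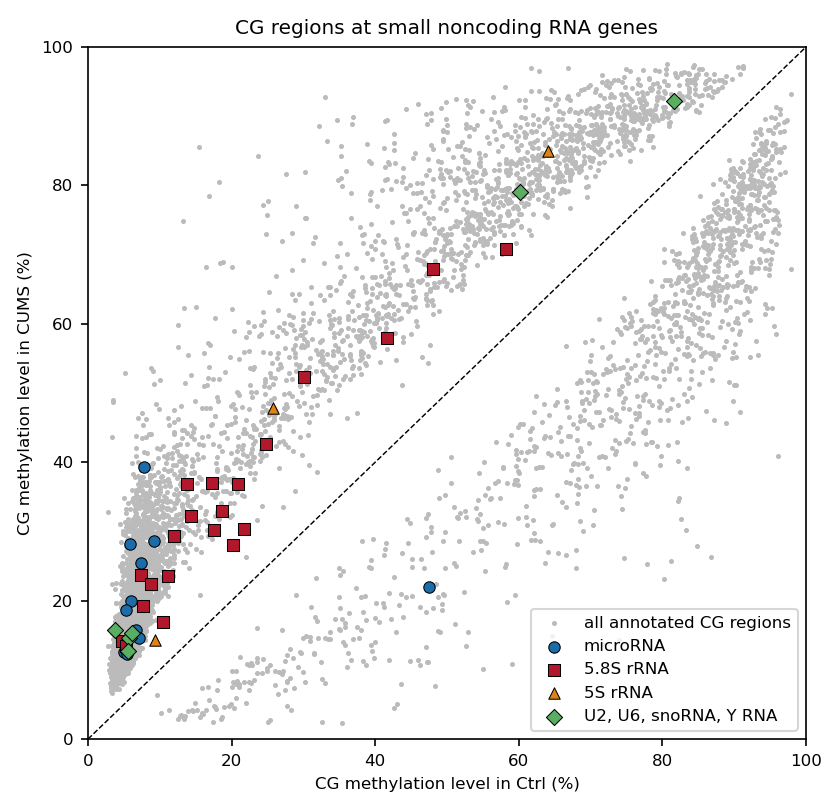
CG methylation level of each region in CUMS (y axis, percent) against Ctrl (x axis, percent), with all 5849 annotated CG regions in grey and the 41 at small noncoding RNA genes as colored symbols. The dashed line marks equal levels: 40 members lie above it and Mir92b, at 21.9% in CUMS and 47.5% in Ctrl, lies below.

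MicroRNA genes had 28 regions at 38 genes. Of these regions 23 were higher in CUMS and 5 were lower. All but 1 of the 11 CG regions and all 8 CHH regions were higher, and the 9 CHG regions were divided into 5 higher and 4 lower. Over all annotated regions, 80.0% of CG, 78.5% of CHH and 68.6% of CHG regions were higher. The 10 higher CG regions lay in CpG islands, at a median of 19.3% in CUMS and 6.37% in Ctrl. Over all higher CG regions in promoters these medians were 18.5% in CUMS and 6.36% in Ctrl. The lowest CUMS level of the 10 was 12.3% and their highest Ctrl level 9.18%, among regions selected as higher in CUMS.

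The largest of these differences was at Mir2861, a microRNA known from bone-forming cells. Its region (chromosome 3, 16001197 to 16001651, mRatBN7.2) covered the RNA gene and lay in a stretch of exon annotated as 5′ UTR of Cdk9, the kinase that releases paused RNA polymerase II. It had 39.3% in CUMS and 7.80% in Ctrl over 98 cytosines, and ranked 254 of the 4682 higher CG regions by the size of the difference. At the promoter of Mir193b, a microRNA studied in fat cell differentiation, the region (chromosome 10, 1315994 to 1316224) had 28.1% in CUMS and 5.83% in Ctrl. The Mir5132 promoter region (chromosome X, 151778281 to 151778413) had 28.6% and 9.18%. These regions differ in host: that of Mir2861 lies in another gene's exon, whereas the annotation names no other gene at Mir193b. The Mir5132 region was also assigned to the promoter, exon and 5′ UTR of a gene without a symbol.

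Mir5126 lies in the 5′ UTR of Dner, which encodes a neuronal ligand of Notch. Its region (chromosome 9, 85902422 to 85902574) had 25.5% in CUMS and 7.43% in Ctrl. Mir132 and Mir212, paired microRNAs with the shared seed shown above, are induced by neuronal activity, and miR-132 is also known for its part in blood vessel growth. Their common promoter region (chromosome 10, 60022356 to 60022481) had 19.96% in CUMS and 6.05% in Ctrl over 18 cytosines. Mir1247 lies beside Dio3, which encodes a thyroid hormone inactivating enzyme at the end of the imprinted Dlk1-Dio3 domain. Its region (chromosome 6, 129284492 to 129284789), which also lies in the promoter of Dio3, had 18.7% and 5.29% over 101 cytosines.

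The other 4 higher CG regions at microRNA genes differed by less than 10 percentage points. Mirlet7i encodes a member of the let-7 family, which restrains growth and is itself restrained by Lin28. Its promoter region (chromosome 7, 58642711 to 58642810) had 15.7% in CUMS and 6.68% in Ctrl. The Mir3573 region (chromosome X, 64257714 to 64257831), in the 5′ UTR of the ephrin gene Efnb1, had 14.6% and 7.04%. Mir3573 was also 1 of 8 small RNA genes with 2 or more regions, and its CHG region a short way upstream (chromosome X, 64257358 to 64257569) had 5.46% in CUMS and 0.288% in Ctrl. Both of its regions were thus higher in CUMS. Mir7654 lies in an exon of Arglu1, and its region (chromosome 16, 80753604 to 80753781) had 12.5% and 5.01%. The region of Mir17, Mir18a, Mir19a and Mir20a, members of a cluster cut from 1 transcript and known for promoting proliferation, lay on chromosome 15 (92179007 to 92179110) and had 12.3% and 5.45%.

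Mir92b, a microRNA related to the miR-92a of that cluster and known from neural progenitors, was at the only CG region lower in CUMS. The region (chromosome 2, 174634822 to 174634884) had 21.9% in CUMS and 47.5% in Ctrl, so that CUMS minus Ctrl was -25.6 percentage points. It differed from the other 10 CG regions in its setting: it lay outside CpG islands, in a copy of the long terminal repeat RNLTR2d, and it was also assigned to the promoter of the mucin gene Muc1. Among annotated CG regions 45.6% were lower in CUMS in repeats and 23.4% in promoters outside islands, beside 2.98% in islands. A lower CG region is thus not unusual in that setting. The Mir92b region held 7 cytosines, the fewest of the CG regions at microRNA genes, and reads from a repeat cannot always be placed with certainty.

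**Figure D3:**
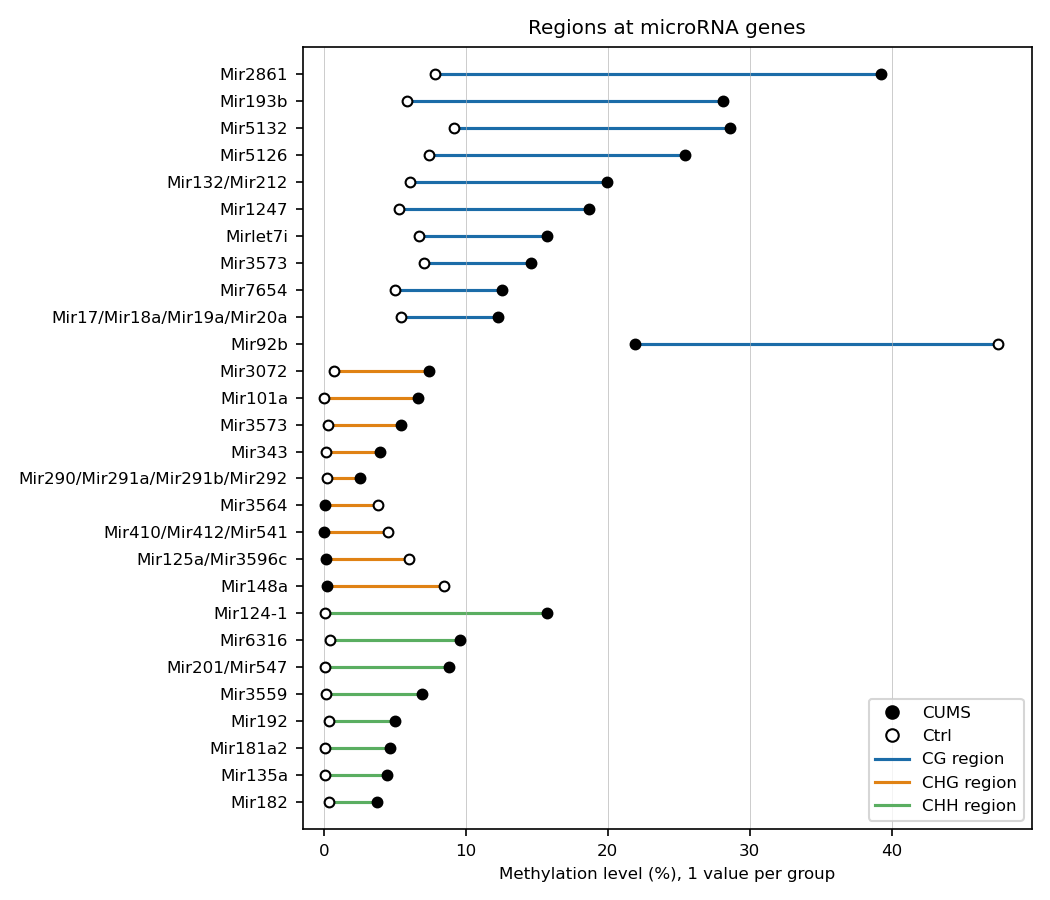
Methylation level (x axis, percent) in CUMS (filled circles) and Ctrl (open circles) for each of the 28 regions at microRNA genes (y axis), with the line colored by context and no error bars because the tables hold 1 value per group. CG regions start from 5.01% to 9.18% in Ctrl except Mir92b, and in each CHG or CHH region 1 of the groups is under 1%.

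In the CHG context the 4 lower regions at microRNA genes were led by Mir148a, whose microRNA has the DNA methyltransferase Dnmt1 among its known targets. Its promoter region (chromosome 4, 80334251 to 80334382), in a CpG island, had 0.214% in CUMS and 8.48% in Ctrl. The region shared by Mir125a and Mir3596c (chromosome 1, 58677102 to 58677266) had 0.145% and 6.03%. The region at Mir410, Mir412 and Mir541 had 0.0210% and 4.50%, and the Mir3564 region on chromosome 19 had 0.112% and 3.78%.

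The 5 higher CHG regions were at Mir3072, Mir101a, Mir3573, Mir343 and the Mir290, Mir291a, Mir291b and Mir292 cluster, which is known from embryonic stem cells. The Mir3072 region had 7.38% in CUMS and 0.699% in Ctrl. At Mir101a, whose microRNA represses the histone methyltransferase Ezh2, the levels were 6.64% and 0.0171%. Mir343 had 3.98% and 0.176%, and the Mir290 cluster had 2.55% and 0.212%. Mir410, Mir412, Mir541 and Mir3072 all belong to the Dlk1-Dio3 domain on chromosome 6, where the region of the first 3 (128756790 to 128757004) was lower in CUMS and that of Mir3072 (128761864 to 128761921) was higher. Together with the CG region of Mir1247, the domain thus held member regions of both directions.

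The 8 CHH regions at microRNA genes were all higher in CUMS, beside 78.5% of all CHH regions and 80.9% of those in promoters. Their levels ranged from 3.72% to 15.7% in CUMS and from 0.0846% to 0.408% in Ctrl. The largest difference was at Mir124-1, a gene of the neuronal microRNA miR-124, on chromosome 15 (38840824 to 38841051), where the levels were 15.7% and 0.0933%. Mir6316 had 9.56% and 0.408%, and the region of the X-linked Mir201 and Mir547 had 8.78% and 0.0959%. Mir3559 had 6.89% and 0.146%. Mir192, known from kidney and liver, had 4.98% and 0.342% in a region that touched the RNA gene itself. Mir181a2, Mir135a and Mir182 made up the rest. Mir124-1 was the only microRNA gene with a CHH difference of at least 10 percentage points.

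Of the 21 microRNA numbers on a list known from endothelial or vascular cells, 5 had a region: Mir17, Mir18a, Mir19a, Mir20a and Mir132. These are the CG regions on chromosomes 15 and 10 described above, both higher in CUMS, and that of Mir132 reached 10 percentage points. Counted by gene, 33 of the 449 microRNA genes in RefSeq (7.35%) had a region, which is not the same unit as the numbers on the list, since a number can stand for several genes. The other 16, among them the endothelial microRNA miR-126, had no annotated region. Of 11 neural microRNA numbers, those of Mir124-1 and Mir212 had a region, both higher and both of at least 10 points. Since Mir132 and Mir212 share a region, the lists are not independent of each other.

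At rRNA genes, 31 regions were found, 24 at 5.8S and 7 at 5S genes. All 21 CG regions at 5.8S genes were higher in CUMS and lay in CpG islands, and 16 of them differed by at least 10 percentage points. Over all annotated CG regions in CpG islands, 97.0% were higher and 60.7% differed by at least 10 points, so the shared direction is general to islands. They belonged to 14 gene identifiers on chromosomes 2, 3, 4, 10 and 11 and on 1 unplaced scaffold. On the chromosomes all of them lay within the first 4.74 Mb. Their median level was 30.3% in CUMS (range 13.4% to 70.8%) and 17.3% in Ctrl (range 4.80% to 58.2%). The differences ran from 6.48 to 22.98 percentage points, so the Ctrl level varied more between regions, including regions of the same copy, than the difference did.

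Copies of the rRNA genes are nearly identical in sequence, so reads cannot be assigned to 1 copy with certainty, and the 21 regions are not independent observations. Weighted by the number of cytosines (1875 in all), CUMS had 33.6% and Ctrl 19.6%. The 19 regions on chromosomes had weighted levels of 36.6% and 18.4%, and the 2 on the scaffold had 29.5% and 21.2%. The same direction was thus listed on the chromosomes and on the scaffold, with a smaller difference on the scaffold. The 8 regions that touched the 5.8S gene had a median difference of 16.8 points and the 13 in its promoter only had 12.6.

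The 5.8S regions with the largest differences were spread over chromosomes 4 and 2. The region on chromosome 4 at 493519 to 495486 covered a 5.8S gene and had 36.8% in CUMS and 13.9% in Ctrl over 316 cytosines. On chromosome 2, a region over another copy (954577 to 955468) had 52.3% and 30.2%. A promoter region on the same chromosome (589025 to 589179) had 68.0% and 48.0%. That last copy had a further region at 589314 to 589729, with 42.6% and 24.8%, so neighbouring stretches of the same copy differed in level while the direction was shared.

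In all, 6 copies of the 5.8S gene had 2 or 3 CG regions, and each of these regions was higher in CUMS. Chromosome 10 held the copy with 3, at 57.95% in CUMS and 41.6% in Ctrl (166867 to 166993), 30.1% and 17.6% (167247 to 167370), and 16.9% and 10.4% (167507 to 167668). The level in this promoter therefore declined along the sequence in both groups. Chromosome 4 showed a pair at 33.0% and 18.7% (2954017 to 2954328) and at 70.8% and 58.2% (2954651 to 2954733). A second pair on chromosome 4 had 19.2% and 7.67% (4736994 to 4737264) and 14.1% and 4.80% (4738487 to 4738614). On the unplaced scaffold the copy with a pair of regions had 30.3% and 21.8% in the longer one and 28.0% and 20.2% in the other. The copy on chromosome 3 had 32.2% and 14.4% (3017965 to 3018201) and 29.3% and 12.02% (3018748 to 3018970).

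Outside the CG context, 3 regions were at 5.8S genes, all of different copies from the 21. In the CHG context a region on a scaffold had 7.58% in CUMS and 0.0424% in Ctrl. A CHG region on chromosome 2 (788223 to 788317) had 3.02% and 0.0259%. A further scaffold held the only 5.8S region lower in CUMS, with 0.0122% and 3.28%.

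**Figure D4:**
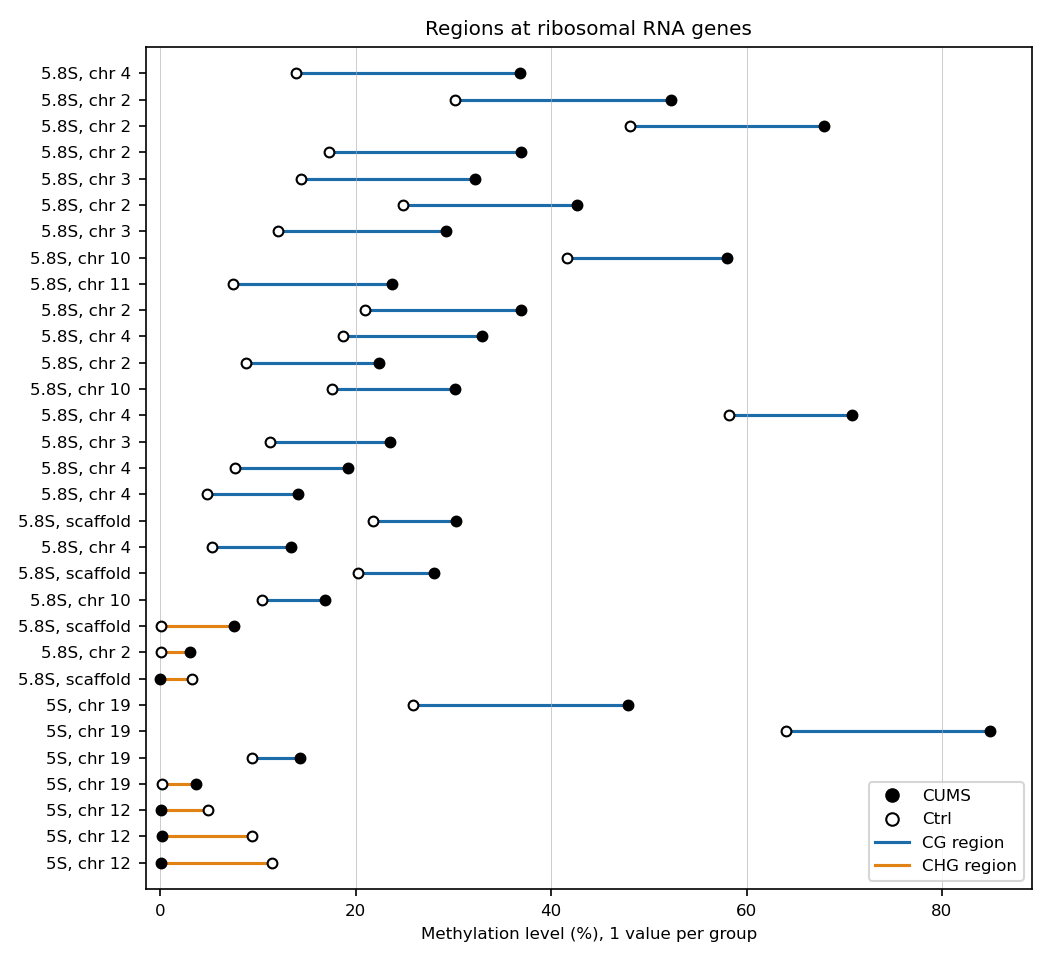
Methylation level (x axis, percent) in CUMS (filled circles) and Ctrl (open circles) for each of the 31 regions at 5.8S and 5S rRNA genes (y axis, with the chromosome or scaffold), with the line colored by context and 1 value per group. In all 24 CG regions the CUMS level lies to the right of the Ctrl level, whereas the 3 CHG regions at 5S genes on chromosome 12 have it to the left.

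The 5S genes formed a pair of separate groups. On chromosome 19, 4 gene copies held 3 CG regions and 1 CHG region, all higher in CUMS. The CG region at 51603672 to 51603724 had 47.9% in CUMS and 25.8% in Ctrl over 9 cytosines. That at 51607586 to 51607703, in another copy of the repeat RNLTR2d, had 85.0% and 64.0%. Over the RNA gene, in a CpG island, the region at 51610102 to 51610313 had 14.3% and 9.38%. The CG region in the island thus had the lowest level of the 3 in both groups and the smallest difference. The CHG region (51611868 to 51611918) had 3.67% and 0.183%, and it belonged to a gene that shared the island region.

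On chromosome 12, 3 other 5S copies each had a CHG region that was lower in CUMS. The region at 4064264 to 4064331 had 0.0826% in CUMS and 11.4% in Ctrl over 7 cytosines. At 4026527 to 4026779, where the region touched the gene and held 44 cytosines, the levels were 0.218% and 9.43%. At 4008777 to 4008836 they were 0.0640% and 4.83%, over 5 cytosines. These regions lay outside CpG islands, and no CG region was annotated to these copies. Annotated CG regions without a small RNA gene did lie between the regions at 4008777 and 4026527, and they were higher in CUMS. Their levels were 78.9% in CUMS with 36.6% in Ctrl and 72.2% with 42.9%.

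Spliceosomal and histone snRNA genes had 29 regions: 18 at U6, 5 at U2, 5 at U4 and 1 at U7. Neither U1 nor U5 had one. At U2, whose RNA pairs with the branch point of introns, both CG regions were higher in CUMS and lay outside CpG islands. The region on chromosome 4 (152577135 to 152577186) had 79.1% in CUMS and 60.1% in Ctrl, and that on chromosome 2 (103674038 to 103674120) had 92.2% and 81.6%. They held 9 and 5 cytosines. Among the CG members, these U2 regions and the 5S region at 64.0% were the only ones above 60% in Ctrl.

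Outside the CG context, the U2 regions ran in both directions. In the CHG context, U2 copies on chromosomes 6 and 5 had 4.63% in CUMS with 0.0119% in Ctrl and 4.46% with 0.107%. On the X chromosome a CHH region (69035737 to 69036042) had 0.246% in CUMS and 13.0% in Ctrl, the largest difference among the CHH members lower in CUMS. U4 RNA pairs with U6 RNA before splicing, and 4 of its 5 regions were higher. The CHH regions on chromosome 5 (96256227 to 96256442) and chromosome 4 (174714245 to 174714648) had 13.4% with 0.184% and 10.9% with 0.219%. Of the other U4 regions, a CHH region on chromosome 5 had 3.15% and 0.235%, a CHG region on chromosome 14 had 3.41% and 0.0113%, and a CHH region on chromosome 6 that also lay in the promoter of Mta1 was lower, at 0.151% and 3.17%.

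U6 RNA takes part in catalysis in the spliceosome and has many copies and pseudogenes in mammalian genomes, so the symbol alone does not show which copies are transcribed. Of its 18 regions 13 were higher in CUMS and 5 were lower, and 17 differed by less than 10 percentage points. The CG regions both lay in CpG islands that belong to other genes. That on chromosome 7 (9724137 to 9724327), in the 5′ UTR and promoter of Tmem259, had 15.4% in CUMS and 6.08% in Ctrl. That on chromosome 9 (111083559 to 111083679), in the promoter of the lipin gene Lpin2, had 12.8% and 5.63%. Higher CHH regions on chromosome 1 (196649725 to 196650005) and chromosome 15 (33302133 to 33302431) had 10.6% with 1.25% and 10.3% with 1.37%.

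The largest U6 difference was lower in CUMS. A CHG region in an intron of Rab11fip4 on chromosome 10 (64596391 to 64596499) had 0.0445% in CUMS and 11.7% in Ctrl. A second U6 copy in the same gene, 3964 bases further on (64600463 to 64600578), had 0.0406% and 3.89% in a copy of the same long terminal repeat. Both Rab11fip4 regions were therefore lower. An intron of Epha10 on chromosome 5 (137141741 to 137141872) held a further lower region, with 0.0169% and 4.89%. The U7 gene, whose RNA helps to form the 3′ end of histone messenger RNAs, had 1 CHG region on chromosome 8 (111051375 to 111051520), at 5.19% and 0.216%.

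**Figure D5:**
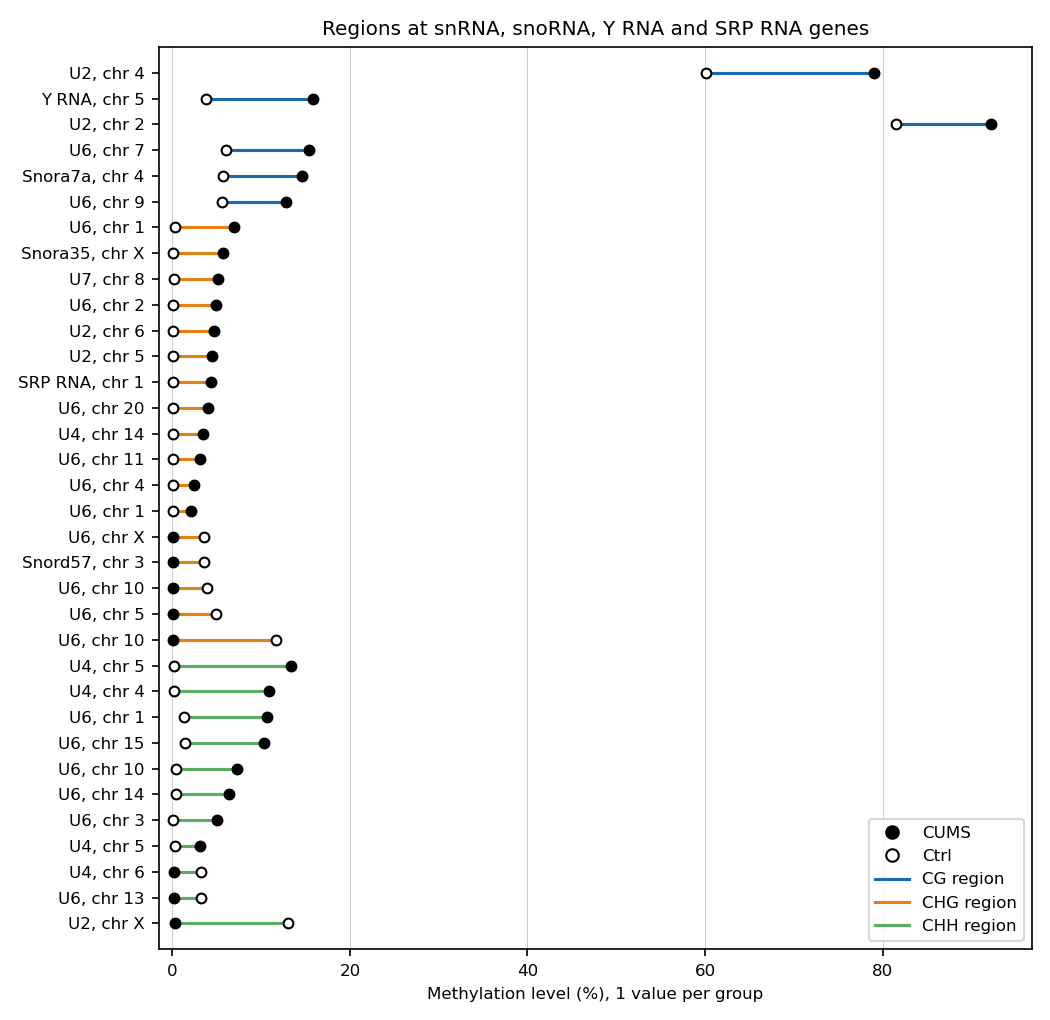
Methylation level (x axis, percent) in CUMS (filled circles) and Ctrl (open circles) for each of the 34 regions at snRNA, snoRNA, Y RNA and SRP RNA genes (y axis, with the chromosome), with the line colored by context and 1 value per group. Both U2 CG regions lie above 60% in both groups, the other 4 CG regions start below 7% in Ctrl, and all 6 are higher in CUMS.

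The remaining classes had 5 regions, all of them annotated to an intron of a host gene. The Y RNA region (chromosome 5, 128507400 to 128507533), in a CpG island and an intron of Cmpk1, had 15.8% in CUMS and 3.79% in Ctrl. Y RNAs bind the Ro60 protein. Snora7a, a guide for pseudouridine formation in rRNA, lies in the ribosomal protein gene Rpl32, and its CG region (chromosome 4, 148867372 to 148867437) had 14.6% and 5.70%. Snora35 lies in an intron of the serotonin receptor gene Htr2c, and its CHG region (chromosome X, 110671867 to 110672057) had 5.70% and 0.0149%. The SRP RNA region, in an intron of Usp29 on chromosome 1 (66986571 to 66986761), had 4.34% and 0.0674%.

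Snord57, a guide for ribose methylation, had the only snoRNA region lower in CUMS. The CHG region (chromosome 3, 117479617 to 117479686) had 0.0151% in CUMS and 3.61% in Ctrl. It lies in Nop56, which encodes a core protein of the same class of snoRNA particles. No region was annotated to a 7SK or Cajal body RNA gene.

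To set these genes beside those that process and bind small RNAs, 40 genes were counted. Of these, 9 had 13 regions (7 CG, 4 CHG and 2 CHH), 11 higher and 2 lower in CUMS. Over all annotated regions 75.3% were higher (CG, 80.0%, CHG, 68.6%, CHH, 78.5%), so a majority of higher regions is general. The 9 genes make up 22.5% of the list, beside 25.9% of the 23148 protein-coding symbols in RefSeq that had an annotated region. Differences of at least 10 percentage points were found in 5 regions of 3 genes. Mepce, which caps 7SK RNA, had an exonic CG region on chromosome 12 (18912618 to 18912706), where CUMS had 19.7% and Ctrl 6.66%. Tnrc6b and Tnrc6c encode scaffold proteins of microRNA silencing. The intronic CHH region of Tnrc6b (chromosome 7, 112265859 to 112266182) had 23.03% and 0.655%. Tnrc6c had CG regions in its 5′ UTR on chromosome 10 (102870085 to 102870246 and 102870368 to 102870537), with 23.5% and 7.06% in the first and 16.5% and 6.25% in the second. Its 3′ UTR region (102977378 to 102977478) had 39.5% and 22.5%. Below 10 points, Dicer1, whose enzyme releases mature microRNAs, had a 5′ UTR region with 11.6% and 6.18%, and the lower regions were those of Nop56, shared with Snord57, and an intron of Tnrc6b at 0.0709% and 4.47%. The other 31 genes, among them Drosha, Dgcr8 and Ago2, had no annotated region.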

How the data were processed

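Libraries were prepared by the authors after enzymatic treatment with TET2 and APOBEC3A, and reads were trimmed with fastp 0.20.0, checked with FastQC 0.11.3 and aligned to mRatBN7.2 (rn7) with Bismark 0.16.3. Regions were called by the authors with DSS, a count model of methylated reads. Methylation levels were deposited as a fraction, with 1 value per region and group, and are given here in percent. Other deposited columns, here of unit other, hold the length and the number of cytosines. The authors' own comparison columns (their difference and region score) were not used, and differences were computed from both levels. Coordinates are those of the tables. Of 4 deposited tables, 2 were used: the annotation table for all counts, and the full list for overlaps of at least 1 bp and for flanks of 2000 bp.

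The tables hold no value per sample, so the planned exact permutation test was replaced by counts, medians and ranges. The smallest difference listed was 2.00 percentage points, below the 10 points of the study's methods, and regions were kept as listed. The members and gene lists were chosen with earlier results of these data known. Named were every CG region at microRNA genes, up to 5 CHG and 5 CHH regions there and up to 3 regions of every other class per direction, genes with 2 or more regions, the endothelial and neural microRNAs, and processing genes of at least 10 points. Some were added for completeness: the remaining U2 and U4 regions, the U6 region at Lpin2, the CHG regions of 5.8S genes, and Dicer1, Nop56 and Tnrc6b below 10 points. Scripts (Python 3.11.15, pandas 2.3.3) were tested on simulated data. Alternatives covered size, cytosine number, counting unit, position, class and context. Sequences are from RefSeq (GRCr8).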

Additional observations from a re-analysis of the deposited data

Results flagged for a closer look

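Regions of the full list that are outside the annotation table were looked up within 2000 bp of the member regions. Apart from the overlaps between contexts, no comparison above uses them. There were 50, all CHH regions, and 32 of them were higher in CUMS (64%, beside 63.5% of all 135830 regions outside the annotation table). These 32 had a median of 3.61% in CUMS and 0.150% in Ctrl. Of the 50, 25 overlapped a member, in 26 pairs, and 25 of these pairs had the same direction. The pairs with CHG members are those given above, and 2 CG members were overlapped as well. In the pair of unlike direction, a CHH region on chromosome 4 (2953920 to 2954029) was lower, with 0.437% in CUMS and 3.58% in Ctrl. The 5.8S CG region that it overlapped (2954017 to 2954328) was higher. The other 25 regions did not overlap a member. Of the latter, 17 were higher in CUMS (68%). In the 29 pairs of a member and a neighbour without overlap, 18 had the same direction.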

How the results depend on the processing

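The direction of all 93 regions was recomputed under 14 alternatives and stayed mostly higher in CUMS in all 14. Some of these could change little: leaving out host gene symbols removed no region, and the promoter setting kept 88 regions. Since 75.3% of all annotated regions were higher, such a majority is also not particular to these genes. Over all results, 45 of 58 comparisons counted as little moved. For a share this meant staying within the 95% binomial interval of the listed value, which takes regions as independent. With few regions that interval is wide (5S genes, 18.4% to 90.1%), so such shares could hardly move. For medians and gene counts it meant a change of at most 1.5-fold. The count of 45 is therefore no measure of how robust the directions are. Where 10 percentage points were required as the smallest difference, the share higher in CUMS was 0% for CHG regions (2 regions, both lower) and 0% for U6 (1 region), so these directions turned. Under that limit the share was 100% at 5.8S and U4 genes, the median of lower CHG regions in Ctrl was 11.5%, that of higher CHH regions in CUMS was 13.4%, lower CHH regions had 0.246% in CUMS and 13.0% in Ctrl, and 3 processing genes were left of 9. With CG regions alone the share was 100% at 5.8S, 5S, U2 and U6 genes. Without the rRNA genes, an alternative chosen after seeing the data, 49 of 62 regions and 16 of 17 CG regions were higher. The 10-point limit keeps only large differences, and the CG setting keeps only CG regions. Shares and medians under them reflect that selection as well as the smaller number of regions, and a cause beyond it was not tested. No paired analysis was possible because each group has 1 combined value, and for the same reason no sample could be left out in turn. The read depth of single regions, not given in the tables, limits the CHG and CHH levels near 0 and regions of 5 to 10 cytosines.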

Other observations

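Some snoRNA genes are written in capitals in the annotation and fell outside the symbols counted above, and they were examined after their values were seen. SNORD24 had a CG region in its promoter on chromosome 13 (73303072 to 73303196), where CUMS had 30.5% and Ctrl 8.98%. The difference was larger than at Snora7a, the only counted snoRNA gene with a CG region. SNORA62, a guide for pseudouridine formation, had a CHH region at each of 2 copies, with 7.28% and 0.0316% on chromosome 4 and 3.16% and 0.176% on chromosome X. All 3 regions were higher in CUMS.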
